A study of Mus musculus with 6 samples.

Results

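The recoding substrates described here are 9 mouse genes, Flna, Blcap, Cdk13, Cog3, Copa, Igfbp7, Gli1, Son and Tmem63b, whose transcripts are known to be edited so that the encoded protein changes. They were taken by symbol from the 37576 genes of the deposited count table, which held each of them once, and their editing sites were the 45 of 6012 tabled sites that carry one of these gene names. RNA came from suspensions of whole livers of C57BL/6 embryos at embryonic day 12.5. The 3 wild-type livers were numbered 2 (male), 15 and 17 (both female), and the 3 livers homozygous for the E861A allele of ADAR1 (Adar1E861A/E861A) were numbered 6, 16 and 19 (all male), so sex was partly tied to genotype. The comparison asked which recoding sites lose editing without ADAR1 activity and which keep it, and whether the genes themselves change in expression.

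Editing by ADAR enzymes removes an amino group from adenosine in double-stranded RNA and leaves inosine, which the ribosome and the sequencer read as guanosine. ADAR1, encoded by Adar, and ADAR2, encoded by Adarb1, both edit RNA. Their substrates overlap in part, and recoding sites often depend on a hairpin formed between an exon and a nearby intron. The E861A change lies in the deaminase domain of ADAR1 and abolishes its editing while the protein is still made.

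The sequences below are those of the sites on which the results turn, 5′ to 3′ on the transcript strand with the edited adenosine in capitals, 10 bases to either side, and coordinates in NCBIM37 (mm9). Each name gives the encoded amino acid, its codon and the amino acid read after editing.
Blcap Y2C (chr2:157383875-157383895, minus strand): gagatcatgtAttgcctccag
Blcap Q5R (chr2:157383866-157383886, minus strand): tattgcctccAgtggctgctg
Blcap K15R (chr2:157383836-157383856, minus strand): ctcatccccaAgcccctcaac
Cdk13 Q103R (chr13:17896168-17896188, minus strand): ggagggcggcAgaagcggcgc
Flna Q2333R (chrX:71472191-71472211, minus strand): tctagtcttcAggtgaggcac
Cog3 I635V (chr14:76119516-76119536, minus strand): cattaaggaaAtttccctgga
Copa I164V (chr1:174022469-174022489, plus strand): cgtttgggatAtttctggtga
Igfbp7 R78G (chr5:77836798-77836818, minus strand): cgcggccggcAgggggcactg
Igfbp7 K95R (chr5:77836746-77836766, minus strand): aagaggcggaAgggtaaagcc
The base before the site was T at 24.4% of the 45 member sites against 47.7% of all 6012 sites, C at 33.3% against 19%, and G at 17.8% against 6.35%. The base after the site was G at 64.4% of member sites and 46.8% of all sites. These shares count every tabled site alike, whatever its level. Son supplied 18 of the 45 sites, none above 1.20% in a genotype. No member site with G before it held more than 2 edited reads in a genotype. The sites that lost editing differed in both bases, with T before and T after at Blcap Y2C and C and G at Cdk13 Q103R. Sites that kept it shared these bases. Copa I164V had those of Y2C, and Flna Q2333R and Blcap Q5R had those of Q103R.

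Of the 45 sites, 37 lay in coding sequence, where 27 change the protein and 10 are synonymous, and 8 were intronic. The table held 112 coding sites in all, so these 9 genes supplied 37 of them. At least 10 reads in each genotype covered 43 of the 45 sites, and the reads of each genotype were summed and put to Fisher's exact test, two-sided, with Benjamini-Hochberg adjustment over the 3883 sites of the whole table that had such coverage. Editing was lower in E861A at 2 of the 43 sites and higher at 3, where the background was 16.7% lower and 0.155% higher over all tested sites. Of all 108 tested coding sites, 2.78% were lower and 1.85% higher, and the members held 2 of the former and 1 of the latter. The lower sites were Blcap Y2C and Cdk13 Q103R, and the higher ones were Flna Q2333R and 2 sites in the intron that follows it. These 2 intron sites are adjacent adenosines that the same reads can cover, so they are not separate observations. The 0.155% higher over the whole table was 6 sites, with the 3 Flna sites among them. In 7 of the 43 sites the libraries of the genotypes did not overlap, against 21.2% of tested sites in the whole table.

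A tested site was counted as kept where it was not lower, held at least 3 edited reads in E861A, and stood in E861A at 50% or more of its wild-type level. By this rule 14 of the 43 sites were kept, the 3 higher ones included, against 7.47% of all tested sites. As the rule needs 3 edited reads, a deeply covered site can meet it at a low level and a thinly covered one cannot. The shares were not matched for coverage, so they do not show whether members kept editing more often. They were 4 sites in Son, 3 in Flna, 2 each in Cog3 and Igfbp7 and 1 each in Blcap, Copa and Tmem63b. Those in Son and Tmem63b stood at most at 1.20%, and the Tmem63b site met the rule with no edited read in wild type. The count of kept sites was 10 without E861A 19, when Blcap Q5R, Tmem63b Q619R and 2 Son sites dropped out, and 12 without E861A 6. Apart from these and the lower sites, 27 sites were undecided, 14 of them in Son, most for want of edited reads. Of all 43 sites, 22 stood under 1% in both genotypes, 16 of these in Son. The Son sites at 91656331 and 91656403 were among these 16 although they counted as kept.

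The Fisher's exact test takes all reads of a genotype as one sample and leaves out the spread between livers. A quasi-binomial test across libraries, which includes it, called none of the 43 member sites and none of the 3883 sites, with an unadjusted p under 0.05 at 5 member sites and at 658 sites of the table. The 5 were Blcap Y2C, Cdk13 Q103R and the 3 higher Flna sites. With 3 livers against 3 an exact permutation test cannot go below 0.1, so the levels of single libraries are given for the sites described in detail, in the order wild type 2, 15, 17 and E861A 6, 16, 19.

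**Figure D1:**
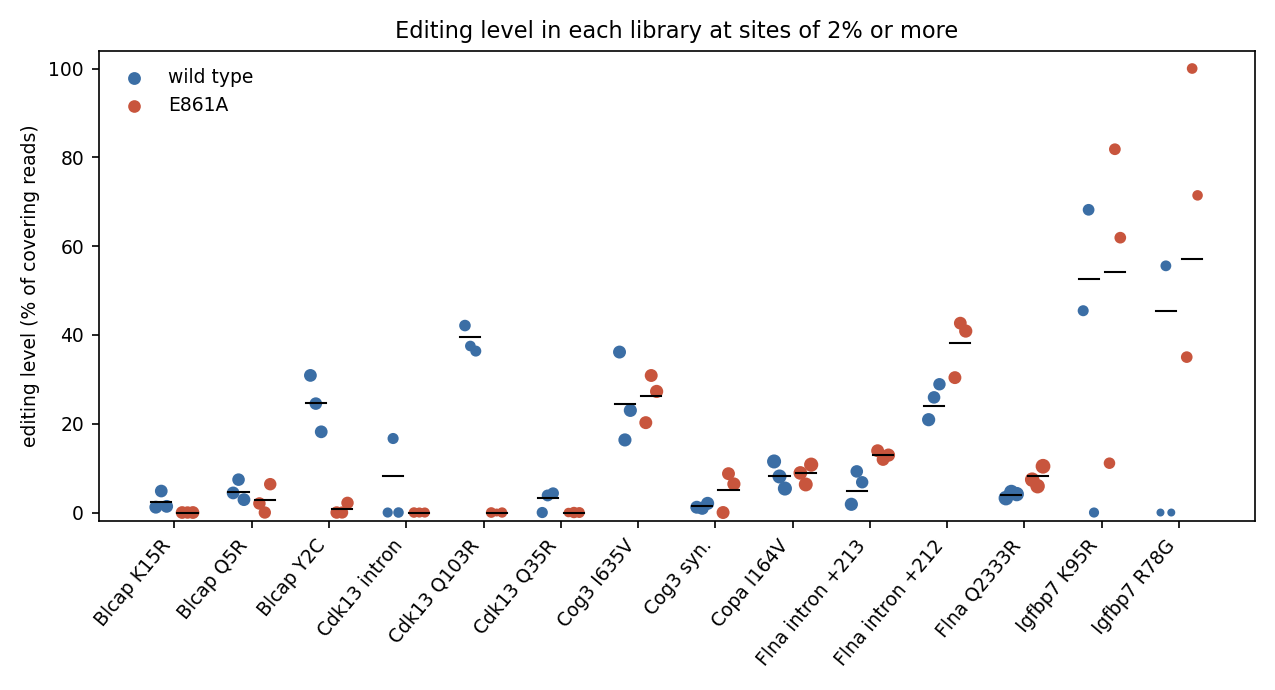
Editing level, in percent of covering reads, in each library at the 14 tested sites that reached 2% in a genotype. Each point is a library (larger where more reads covered the site), the bar is the level over summed reads, blue is wild type and red is E861A, and Flna intron sites are named by their distance in bases from Q2333R. Blcap Y2C and Cdk13 Q103R stood at or near 0 in E861A, whereas Cog3 I635V and Copa I164V overlapped between genotypes.

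Blcap (ENSMUSG00000067787) encodes a small membrane-associated protein with an edited amino end, first described as reduced in bladder cancer. At Y2C, in exon 2, editing was 30.9%, 24.5% and 18.2% in the wild-type livers. It was 0%, 0% and 2.17% in the E861A livers. All wild-type livers thus stood far above all E861A livers. Over summed reads, 46 of 187 were edited in wild type (24.6%, Wilson 95% interval 19 to 31.2) and 1 of 133 in E861A (0.752%, 0.133 to 4.14). The difference was -23.85 percentage points (95% interval -30.5 to -17.3), with an adjusted p of 8.81e-10 in Fisher's exact test and 0.116 in the quasi-binomial test across libraries.

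The other coding Blcap sites were edited less in wild type, which limits what a fall could show. Q5R, 9 bases downstream of Y2C on the transcript, was edited in 9 of 191 wild-type reads (4.71%) and 4 of 138 E861A reads (2.90%), with 4.41%, 7.41% and 2.90% in the wild-type livers and 2.04%, 0% and 6.38% in the E861A livers. Its genotypes overlapped, the difference being -1.81 points (95% interval -6.19 to 3.04, adjusted p = 0.809 in Fisher's exact test). It counted as kept only through E861A 19, which held 3 of the 4 edited reads. Without that library the difference was -3.61 points, and it was -0.545 points without E861A 16 and -0.751 points without wild type 15. K15R was edited in 5 of 217 wild-type reads (2.30%) and in 0 of 184 in E861A. It had edited reads in each wild-type library, at 1.21%, 4.84% and 1.39%, and in none of E861A, but did not pass the test (adjusted p = 0.244 in Fisher's exact test). A single intronic site, at chr2 position 157384381, had 2 edited of 8 wild-type reads and 0 of 15 in E861A, too few to be tested.

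Blcap Y2C and Q5R lie in a stretch that can pair with the intron before it. For each site of the table, the 41 bases around it were searched for the best complementary stretch within 2000 bases, with G-U pairs allowed. For Y2C it began 477 bases upstream in intron 1 and matched 36 bases by Watson-Crick and 2 by G-U pairs, with 3 mismatches. A score as high was found at 7.0% of all tabled sites, and the score of Q5R at 8.27%. Cdk13 Q103R, the other site that was lower, scored low, since 81.8% of tabled sites scored as high or higher, as for Blcap K15R. A stretch of 30 bases of each arm is shown with tabled sites in capitals.
Blcap start of the coding sequence (chr2:157383866-157383895, minus strand): gagatcatgtAttgcctccAgtggctgctg
Blcap partner in intron 1 (chr2:157384372-157384401, minus strand): ctgcagccccaggaggcgatAcatgatctc
The intronic site lies in the partner, so it faces the arm that holds Y2C and Q5R. The best stretch of K15R, at chr2:157384401-157384441, overlapped the end of the Y2C partner. It matched less well, with 28 Watson-Crick and 2 G-U pairs and 11 mismatches. The pairing is a match of letters, and no structure was measured.

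Whether the Blcap sites differed among themselves in their change was tested by a site by genotype interaction in a logistic model on summed reads, fitted for the 576 genes with at least 2 tested sites. The background was 8.68% of these genes called. Blcap was the nearest to a call among the members, with an adjusted p of 0.0513 in the likelihood-ratio test over its 3 tested sites. Over the alternatives it ranged from 0.0396, with at least 20 reads, to 0.434, without E861A 19, where the likelihood ratio went from 10.71 to 4.03. It was under 0.05 in 2 others, the male libraries alone (0.046) and without wild type 15 (0.041), and over it in the rest, among them 0.177 without E861A 6 and 0.105 with at least 5 reads. No difference among the Blcap sites is thus called. The test treats sites as separate although 1 read can span several, which can make its p too small.

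Cdk13 (ENSMUSG00000041297) encodes a kinase that partners with cyclin K and phosphorylates RNA polymerase II. At Q103R, in exon 1, editing was 42.1%, 37.5% and 36.4% in the wild-type livers, and 0% in every E861A library. The coverage was thin, with 38 wild-type reads, 15 of them edited (39.5%, Wilson 95% interval 25.6 to 55.3), and 15 E861A reads, which allow a level of up to 20%. E861A 16 contributed 1 read. The difference was -39.5 points (95% interval -55.3 to -14.8) with an adjusted p of 0.0317 in Fisher's exact test, which became 0.0528 without wild type 2, and 0.227 in the quasi-binomial test across libraries. Without E861A 6 or without E861A 19 fewer than 10 reads were left and the site could not be tested.

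The remaining Cdk13 sites had too few edited reads to show a loss. Q35R in exon 1 was edited in 2 of 62 wild-type reads (3.23%; 0%, 3.85% and 4.35% by liver) and 0 of 29 in E861A. Of 2 sites in intron 7, that at 17837090 had 2 of 24 and 0 of 17 edited reads and that at 17838613 had 2 of 16 and 0 of 6. These intronic sites lay 1523 bases apart, and the best complementary stretch of each held the other, with a score reached by 30.2% of all tabled sites. At the 4 Cdk13 sites together no edited read was found in E861A.

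Flna (ENSMUSG00000031328) encodes filamin A, which crosslinks actin and anchors membrane proteins, and Q2333R changes a residue near its carboxyl end. Here editing was higher in E861A. At Q2333R the level was 3.25%, 4.64% and 4.15% in the wild-type livers, and 7.40%, 5.93% and 10.4% in the E861A livers. The lowest E861A library stood above the highest wild-type library. Summed, 63 of 1612 reads were edited in wild type (3.91%, Wilson 95% interval 3.07 to 4.97) and 154 of 1864 in E861A (8.26%, 7.10 to 9.60), a difference of 4.35 points (95% interval 2.78 to 5.93). The adjusted p was 1.72e-06 in Fisher's exact test and 0.239 in the quasi-binomial test across libraries. Without E861A 19 the difference was 2.78 points and still passed the exact test, at an adjusted p of 0.0135.

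The intron behind it moved the same way. The Q2333R adenosine lies 1 base before the last base of exon 41, and intron 41 is 526 bases long. The site 212 bases downstream, at 71471989, was edited at 20.9%, 25.9% and 28.9% in the wild-type livers and at 30.4%, 42.6% and 40.9% in the E861A livers. Summed reads gave 23.9% and 38.2%, a difference of 14.2 points (95% interval 5.83 to 22.2, adjusted p = 0.00811 in Fisher's exact test). At the next adenosine, 71471988, the wild-type levels were 1.85%, 9.26% and 6.82% and the E861A levels 13.9%, 11.9% and 12.9%, which was 4.85% and 13% over summed reads (adjusted p = 0.0246 in Fisher's exact test). Neither site had overlapping genotypes. Both calls were lost without wild type 2, at an adjusted p of 0.219 and 0.595, and without E861A 19, at 0.103 and 0.0635, and that at 71471988 also without E861A 6, at 0.0687.

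Adenosines beside these sites were barely edited. The third A of the same run, 71471987, was at 1.92% in wild type and 0.382% in E861A, and S2331G, 7 bases upstream of Q2333R, at 0.0591% and 0.104%. The sites at 71472012 and 71471958 each had 1 edited read, both in E861A. The best complementary stretch to the bases around Q2333R was the very stretch of intron 41 that holds the 3 adjacent sites, starting 190 bases downstream, with 27 Watson-Crick and 5 G-U pairs. Its score was reached by 66.8% of all tabled sites, so it did not stand out among them. Tabled sites are in capitals.
Flna exon 41 and start of intron 41 (chrX:71472181-71472216, minus strand): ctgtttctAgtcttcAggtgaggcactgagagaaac
Flna partner in intron 41 (chrX:71471975-71472011, minus strand): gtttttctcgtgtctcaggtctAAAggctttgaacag
Over its 7 sites Flna showed no difference in the change between sites that passed the test (adjusted p = 0.535 in the likelihood-ratio test).

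**Figure D2:**
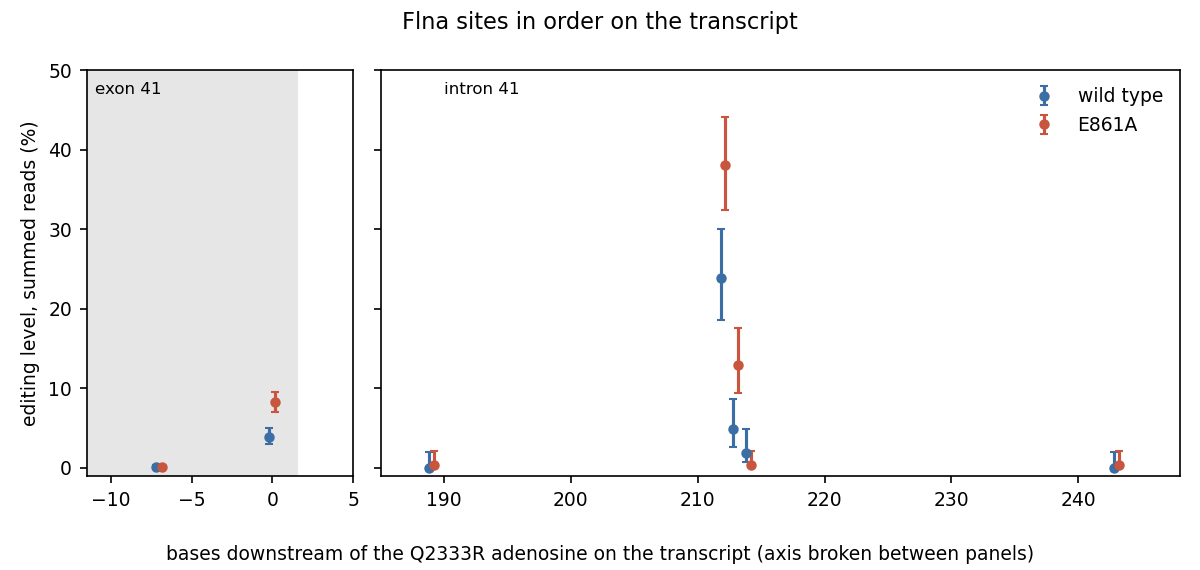
Editing level over summed reads, in percent, at the 7 Flna sites against their distance in bases from the Q2333R adenosine along the transcript, with the axis broken inside intron 41. Points are genotypes (blue wild type, red E861A, set slightly apart), bars are Wilson 95% intervals and exon 41 is shaded. The levels at Q2333R and at the sites 212 and 213 bases downstream were higher in E861A, 8.26%, 38.2% and 13% against 3.91%, 23.9% and 4.85%.

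Cog3 (ENSMUSG00000034893) encodes a subunit of the conserved oligomeric Golgi complex, which tethers vesicles within the Golgi. I635V, in exon 17, was edited at 36.1%, 16.3% and 23.0% in the wild-type livers and at 20.2%, 30.9% and 27.3% in the E861A livers. The genotypes overlapped, and the spread between wild-type livers was wider than the gap between genotypes. Summed, 70 of 287 and 72 of 275 reads were edited (24.4% and 26.2%), a difference of 1.79 points with a 95% interval from -5.38 to 8.97 (adjusted p = 0.868 in Fisher's exact test). A fall of the size seen at Blcap Y2C lies outside this interval, which covers counting error only and leaves out the spread between livers. The sign of this small difference turned with the libraries used, to -9.96 points in males alone.

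The adenosine just before I635V, the last base of codon 634, is a synonymous site. It was edited at 1.19%, 0.962% and 2.06% in the wild-type livers and at 0%, 8.75% and 6.42% in the E861A livers. Both E861A 16 and 19 stood above all wild-type livers and E861A 6 below them. Summed levels were 1.40% and 5.11% (adjusted p = 0.0828 in Fisher's exact test, and 0.0106 without E861A 6). K633R and K640R had at most 2 edited reads in a genotype, and the interaction test over the 4 sites gave an adjusted p of 0.193.

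Copa (ENSMUSG00000026553) encodes the alpha subunit of the COPI coat, which returns cargo from the Golgi to the endoplasmic reticulum. Its I164V site in exon 6 was covered by 954 reads in wild type and 842 in E861A. Levels were 11.5%, 8.12% and 5.41% in the wild-type livers and 8.91%, 6.32% and 10.8% in the E861A livers, and the genotypes overlapped. Summed, 79 and 75 reads were edited (8.28% and 8.91%), a difference of 0.63 points with a 95% interval from -1.97 to 3.27. S154G, 30 bases upstream, had 2 edited reads in each genotype. For Cog3 I635V and Copa I164V the best complementary stretch within 2000 bases scored low, since 99.9% and 94.8% of tabled sites scored as high or higher.

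Igfbp7 (ENSMUSG00000036256) encodes a secreted protein that binds insulin-like growth factors, and its 2 sites lie in exon 1, 52 bases apart. K95R was edited in 20 of 38 wild-type reads (52.6%, Wilson 95% interval 37.3 to 67.5) and 33 of 61 in E861A (54.1%, 41.7 to 66.0). R78G was edited in 5 of 11 wild-type reads (45.5%) and 20 of 35 in E861A (57.1%). By liver R78G was at 0%, 55.6% and 0% in wild type, over 1, 9 and 1 reads, and at 35%, 100% and 71.4% in E861A, over 20, 8 and 7 reads. These were the highest levels of the set in E861A. Single libraries ranged from 0% to 68.2% in wild type and from 11.1% to 81.8% in E861A at K95R, over 5 to 22 reads each. With so few reads the 95% intervals of the differences, -17.9 to 20.9 points for K95R and -19.4 to 40.1 points for R78G, hold changes in both directions.

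Son, Gli1 and Tmem63b were hardly edited. Son (ENSMUSG00000022961) encodes a large nuclear speckle protein needed for splicing, and its 18 sites, 9 of them synonymous, all lay in exon 3 over 430 to 1220 reads a genotype. Its highest level was 1.20%, at R575G in E861A (7 of 584 reads), against 0.437% in wild type (4 of 915), with an adjusted p of 0.376 in Fisher's exact test. Its libraries did not overlap, at 0.413%, 0.287% and 0.615% in wild type and 1.22%, 1.84% and 0.702% in E861A. Summed levels were higher in E861A at 9 Son sites and lower at 9, and 7 had no edited read in E861A. Gli1 (ENSMUSG00000025407) encodes a transcription factor of the Hedgehog pathway, and its sites R702G, E706G and E707G had at most 1 edited read in a genotype, over 84 to 96 reads. Tmem63b (ENSMUSG00000036026) encodes a membrane ion channel, and its Q619R site had no edited read among 217 in wild type, which allows a level of up to 1.38%, and 3 among 271 in E861A (1.11%; 1.16%, 0% and 2.11% by liver). Every site of the table had an edited read in some library, and the part of sequencing error in levels of this size was not tested.

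**Figure D3:**
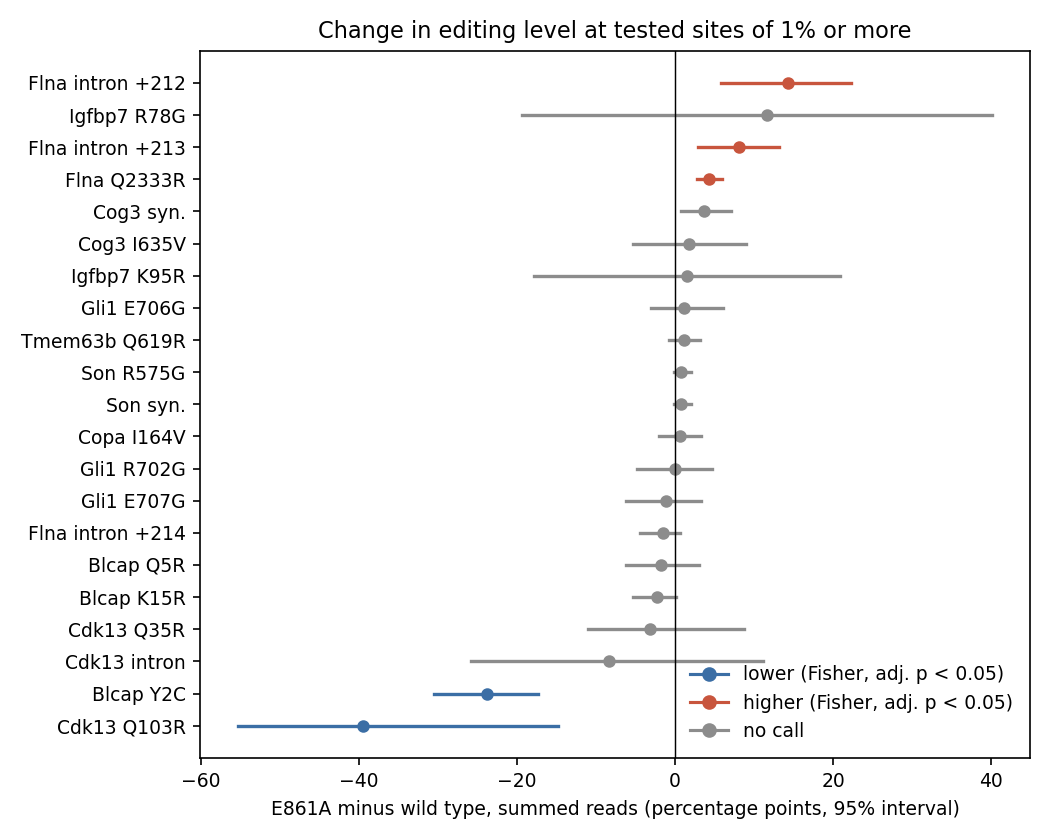
Difference in editing level, E861A minus wild type in percentage points over summed reads, at the 21 tested sites that reached 1% in a genotype, with 95% intervals. Blue is lower and red higher in E861A by Fisher's exact test, grey is no call, and Flna intron sites are named by distance in bases from Q2333R. Blcap Y2C and Cdk13 Q103R lie far left at -23.85 and -39.5 points, while the interval of Copa I164V, -1.97 to 3.27, spans 0.

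The enzymes themselves were unequal in change. Adar rose from 64.3 ± 12.7 to 317.7 ± 37.5 counts scaled by library total (CPM; SD, n = 3 each), which is a log2 fold change of 2.30 (SE 0.19) with an adjusted p of 0.00026 in edgeR's quasi-likelihood test. Adarb1 stood at 12.5, 9.02 and 8.95 CPM in the wild-type livers and at 7.04, 9.85 and 10.4 CPM in the E861A livers. Its genotypes overlapped, with a log2 fold change of -0.16 (SE 0.23, adjusted p = 0.721 in edgeR) that was -0.465 with sex as a covariate, -0.010 when E861A 6 was left out and -0.001 when wild type 2 was, with no call. Adarb2, which is not known to edit, had a log2 fold change of -0.02. As the mutation replaces 1 residue, the level of Adar does not check the genotype labels.

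Expression of the 9 genes was compared with edgeR on the deposited counts, between 35280460 and 43733715 a library, fitted over 16511 genes. In that fit 12.0% of genes changed in E861A, 7.77% rising and 4.26% falling (1283 and 703 genes), where DESeq2 called 1453 higher and 1397 lower. Of the 9 members 1 rose and none fell, in edgeR and in DESeq2, and Cdk13 was lower at an unadjusted p under 0.05 in both. Of all tested genes 15.5% were higher and 12.2% lower at an unadjusted p under 0.05 in edgeR, and DESeq2 called 8.58% higher and 8.25% lower. Their median log2 fold change was 0.09, beside 0.04 over all genes tested. The libraries of the genotypes did not overlap for 2 of the 9, Igfbp7 and Cdk13, against 33.8% of all tested genes.

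Igfbp7 stood at 3.96, 4.28 and 2.70 CPM in the wild-type livers and at 8.84, 9.66 and 7.20 CPM in the E861A livers. Every E861A library stood above every wild-type library, a log2 fold change of 1.23 (SE 0.26, adjusted p = 0.0203 in edgeR). The authors' deposited table gives 1.24 with an adjusted p of 0.0167. The log2 fold change stayed between 1.06 and 1.36 in all alternatives, but the call depended on the libraries. The adjusted p in edgeR was 0.178 with sex as a covariate, 0.101 without wild type 17, 0.117 without E861A 16 and 0.0554 without E861A 6. With sex as a covariate the genes that rose over the whole fit also went from 1283 to 530. In the male libraries alone, with 1 wild-type liver, the log2 fold change was 1.12.

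Igfbp1, which encodes a liver-secreted IGF-binding protein, also rose, from 52.1 ± 6.65 to 454.3 ± 200.5 CPM (SD, n = 3 each), which is a log2 fold change of 3.13 (SE 0.33) with an adjusted p of 0.00108 in edgeR. Of the 7 IGF-binding protein genes, all tested, these 2 rose and none fell, where 7.77% of all tested genes rose and 4.26% fell. The median log2 fold change was 0.53, but the genes did not move as one. Igfbp5 had a log2 fold change of -0.42 and ranged from 47.5 to 367.5 CPM over the libraries. Endothelial cells are a known source of Igfbp7. Of 5 endothelial markers Pecam1 rose and Stab2 fell, and their summed level was 265.6 to 326.9 CPM in wild type and 234.6 to 367.9 CPM in E861A. Their part in the change of Igfbp7 was not tested.

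Flna varied more among E861A livers than between genotypes. It stood at 621.0, 547.0 and 595.3 CPM in the wild-type livers and at 341.1, 488.8 and 714.0 CPM in the E861A livers, a log2 fold change of -0.19 (SE 0.26, adjusted p = 0.703 in edgeR). Editing at Q2333R was higher in each of these E861A livers, including the 1 with the least and the 1 with the most Flna. The genes whose log2 CPM followed that of Flna most closely over the 6 libraries, among 9787 genes of at least 10 CPM, were Kif13a (Pearson r = 0.997), Atxn1l (0.995) and Camk2g (0.991).

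Blcap was at 19, 15.3 and 15.7 CPM in the wild-type livers and at 18.9, 15.5 and 18.9 CPM in the E861A livers. The genotypes overlapped, with a log2 fold change of 0.09 (SE 0.16, adjusted p = 0.795 in edgeR), so Y2C editing differed between genotypes while the level of the transcript did not pass the test. The closest genes by the same measure were Poglut1 (r = 0.992), Rcbtb2 (0.981) and Mmd (0.980). Cdk13 was at 79.0 to 84.4 CPM in wild type and 61.4 to 68.9 CPM in E861A, a log2 fold change of -0.30 (SE 0.12) that did not pass (adjusted p = 0.162 in edgeR). Ccnk, which encodes its partner cyclin K, and Cdk12, another kinase of cyclin K, had log2 fold changes of -0.40 and -0.41. Their adjusted p values were 0.0833 and 0.304 in edgeR, and DESeq2 called Ccnk lower.

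The substrates in vesicle transport did not pass the test. Copa stood at 260.3 to 286.3 CPM in wild type and 237.4 to 308.1 CPM in E861A (log2 fold change 0.04, SE 0.16), and Cog3 at 41.5 to 46.9 and 44.1 to 52.9 CPM (0.11, SE 0.13). Of the 10 COPI coat genes tested none passed in edgeR or DESeq2. At an unadjusted p under 0.05 in edgeR 1 was lower, beside 12.2% of all tested genes. Of the 8 COG complex genes Cog5 fell, where 4.26% of all tested genes did, and the other 7 did not pass. Cog5 went from 24.0 ± 0.96 to 16 ± 2.34 CPM (SD, n = 3 each). Its log2 fold change was -0.58 (SE 0.16, adjusted p = 0.0482 in edgeR).

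Son stood at 486.9 to 639.6 CPM in wild type and 350.8 to 523.1 CPM in E861A, a log2 fold change of -0.34 (SE 0.20, adjusted p = 0.322 in edgeR). It was -0.189 without E861A 6, -0.123 with sex as a covariate and -0.113 in male libraries alone. None of the 13 nuclear speckle and SR protein genes passed in edgeR, where 4 were lower and none higher at an unadjusted p under 0.05 (12.2% of all tested genes were lower by that measure), and their median log2 fold change was -0.30. DESeq2, which called 8.25% of all its tested genes lower, called 3 of them lower, the splicing factor genes Srrm1, Srsf1 and Srsf10. Tmem63b stood at 30.2 to 31.0 CPM in wild type and 26.3 to 38.4 CPM in E861A, a log2 fold change of 0.14 (SE 0.17). Of the 3 TMEM63 genes 2 had enough reads to be tested, and neither passed in edgeR, at an unadjusted p under 0.05 or in DESeq2.

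Gli1 differed between livers of 1 genotype. It stood at 26.0, 3.81 and 4.11 CPM in the wild-type livers and at 9.24, 6.83 and 20.2 CPM in the E861A livers. The highest and the lowest library were both wild type, and the log2 fold change was 0.09 (SE 0.80, adjusted p = 0.959 in edgeR). Without wild type 2 it was 1.58 with an adjusted p of 0.0451 in edgeR, and without E861A 19 it was -0.56. Of the 10 Hedgehog pathway genes tested none passed in edgeR or DESeq2. At an unadjusted p under 0.05 in edgeR 1 was higher, beside 15.5% of all tested genes. Gli2 and Gli3 were likewise highest in wild type 2 and E861A 19, at 19.3 and 16.1 CPM and at 31.1 and 23.4 CPM.

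The summed level of 7 mesenchymal and stellate markers, among them Col1a1, Col3a1 and Pdgfrb, was 1932, 529.7 and 1271 CPM in the wild-type livers and 1258, 693.9 and 1735 CPM in the E861A livers. It was highest in the same 2 libraries as Gli1. Wild type 17 and E861A 6 had like sums, but Gli1 was at 4.11 and 9.24 CPM there. The neural markers Tubb3 (6.37 and 7.94 CPM) and Snap25 (0.805 and 0.875 CPM) were also highest in wild type 2 and E861A 19. Tubb3 was at 0.834 to 1.58 CPM in the rest. Gfap, another neural marker, was lower in E861A and did not follow Gli1. The part of either marker set in the Gli1 level was not tested. Igfbp7 did not follow the order of the mesenchymal markers and separated by genotype.

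**Figure D4:**
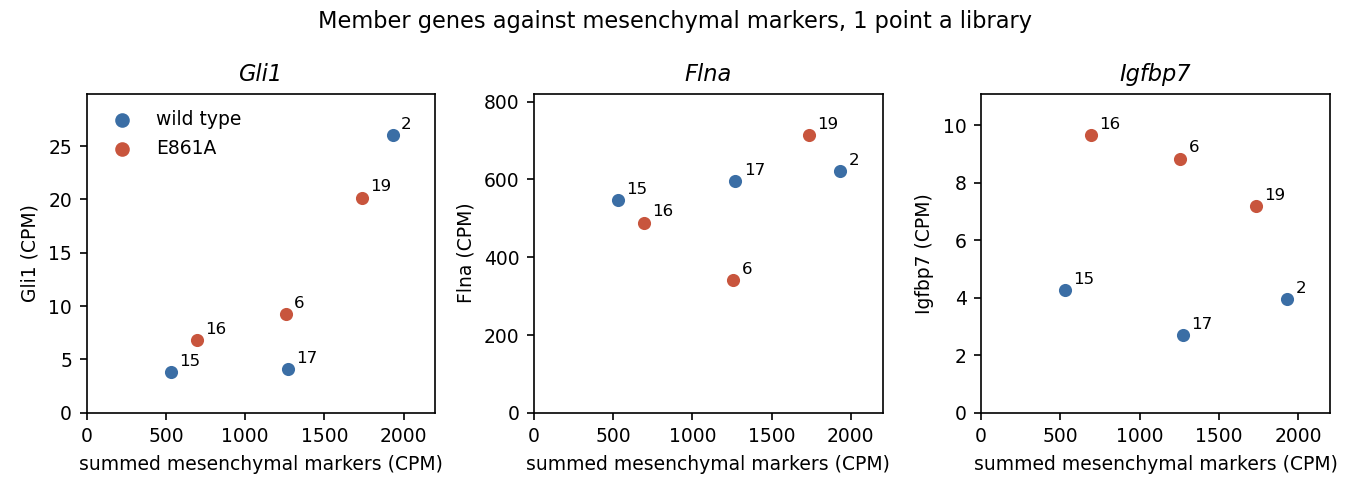
CPM of Gli1, Flna and Igfbp7 in each library against the summed CPM of the 7 mesenchymal and stellate markers. Each point is a library, labelled with its number (blue wild type, red E861A). Gli1 was highest, at 26.0 and 20.2 CPM, in wild type 2 and E861A 19, the libraries with the most marker RNA, while Igfbp7 separated by genotype.

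Marker genes matched the label of fetal liver, with the hepatoblast genes Alb and Afp at 6386 and 9930 CPM and the erythroid gene Slc4a1 at 4764 CPM in wild type. Of 6 erythroid markers 2 fell in E861A, Slc4a1 and Klf1, where 4.26% of all tested genes fell in edgeR. The summed level of the 6 went from between 4838 and 10700 CPM to between 2356 and 2933 CPM. In bulk RNA fewer cells of a type and less RNA per cell cannot be told apart. The cell types that carried the edited reads were not separated, and the part of this shift in any editing level was not tested.

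Per kilobase of exon, the order of levels in wild type was Flna (62.5 CPM per kb), Son (37.8), Copa (29.2), Cdk13 (11.5), Cog3 (10.6), Tmem63b (5.98), Blcap (5.48), Igfbp7 (3.0) and Gli1 (2.99). Tmem63b and Blcap overlapped between their libraries, as did Igfbp7 and Gli1, and the other neighbours did not. In E861A the order had Copa before Son by a margin smaller than their spread, Cog3 (11.4) before Cdk13 (9.33) and Igfbp7 (7.06) in the sixth place. Flna, the first in this order, was edited at 3.91% at Q2333R in wild type, and Igfbp7, near its end, at 52.6% at K95R.

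**Figure D5:**
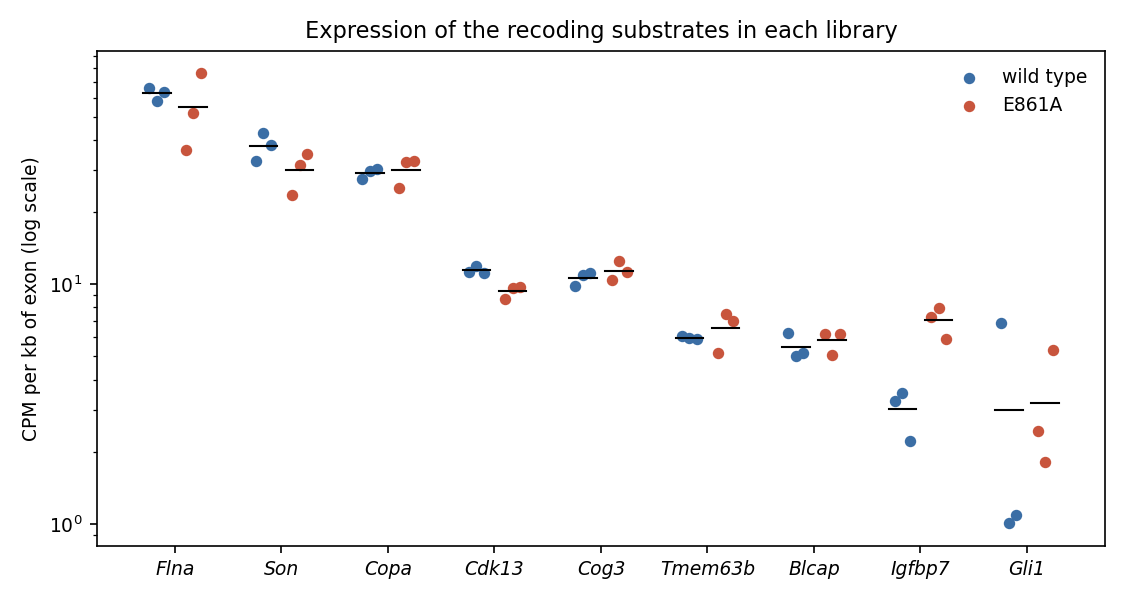
Expression of the 9 genes in each library, in CPM per kilobase of exon on a log axis, ordered by the wild-type mean. Points are libraries (blue wild type, red E861A) and the bar is the mean of 3. Igfbp7 separated upward in E861A (7.06 against 3.0 CPM per kb), Cdk13 lay slightly lower without passing the test, and Gli1 spread within each genotype.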

How the data were processed

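RNA of 6 whole fetal livers was sequenced, per the labels' protocols. The builds mm9 and NCBIM37 and the tools TopHat2 (2.0.8), BWA, HTSeq, SAMtools (0.1.19), limma, edgeR, Cufflinks, Trimmomatic (0.30) and Bowtie2 (2.1.0.0) are named in the submitters' processing notes, which tie none of them to a file. Whether libraries were stranded is not given in the sources used here.

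Gene values are raw read counts as deposited by the authors. Per the file headers, the site table holds covering read counts and the editing level as a fraction, with the authors' own p-value, not used here. The authors' deposited comparison holds log2 fold changes and p-values, and its sign was turned to E861A minus wild type. Other deposited columns, such as the score-like statistics per the file headers, were not used.

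The 9 members and all gene lists were chosen with earlier results of these data known. The named genes are all members and their sites, Adar and Adarb1, list members past the test, and the 3 genes most like Flna and Blcap. Markers are named beside results they touch, and 1 result is not reported here.

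Counts were fitted with edgeR 4.0.16 in R 4.3.3 (filterByExpr, TMM, robust quasi-likelihood) on all genes, and a change is an adjusted p under 0.05. CPM are counts for every 1e6 of the TMM-scaled library total. SE is that of the log2 fold change, taken from the F statistic. Edited reads are level times coverage, within 2.3e-06 of a whole number. Sites with 10 reads in each genotype were tested in Python 3.11.15 (NumPy 2.4.6, pandas 2.3.3, SciPy 1.17.1). Differences have Newcombe intervals at 95%, and a level of 0 is given with the level of 3 edited reads. Intervals cover counting error only. Sequences were read from NCBIM37, whose base matched at all 6012 sites, with exons and codons of GENCODE M1, and pairing was searched with Biopython 1.88. Alternatives were DESeq2 1.42.0, other scaling, filters and coverage minimums, sex as a covariate, male libraries alone, a quasi-binomial test, and each library left out. The code was tested on simulated data.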

Additional observations from a re-analysis of the deposited data

How the results depend on the processing

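No paired analysis was possible because no replicate number occurs in both genotypes and litters are not named. The number of members that rose, 1, became 0 with sex as a covariate and in male libraries alone, and 0 to 2 with each library left out, the second being Gli1 without wild type 2. The number that fell stayed 0. Sites lower, 2, became 1 with at least 20 reads (Cdk13 Q103R then had too few), 0 in the quasi-binomial test, and 1 to 2 with each library left out. Sites higher, 3, became 0 in the quasi-binomial test and 1 to 3 with each library left out. Sites kept, 14, became 13 with at least 20 reads and in male libraries alone, and 10 to 14 with each library left out. Genes whose sites differed, 0, became 1 (Blcap) with at least 20 reads and in male libraries alone, and 0 to 1 with each library left out. The cause was not tested where it is not given.

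Small differences without a call turned sign. With sex as a covariate Blcap went to -0.10 and Gli1 to -1.11 (log2 fold change, E861A against wild type), and in male libraries alone to -0.091 and -1.10. Copa went to -0.019 with DESeq2 and to -0.007 with its size factors in edgeR. Over the left-out libraries the log2 fold change ranged from -0.52 to 0.032 for Flna, -0.033 to 0.16 for Cog3, -0.085 to 0.15 for Copa, -0.56 to 1.58 for Gli1 and -0.044 to 0.28 for Tmem63b. In male libraries alone Cog3 I635V went to -9.96 points and Copa I164V to -2.59. Over the left-out libraries the differences in points ranged from -2.78 to 6.57 at Cog3 I635V, -0.916 to 2.20 at Copa I164V, -14.2 to 22.9 at Igfbp7 K95R and -1.01 to 41.2 at Igfbp7 R78G. Depth limits the sites: 4 of the 43 had under 30 reads in a genotype, and 2 had over 1000 in both.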

Other observations

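Other genes with known recoding sites, most of them neural, were read in the same tables. Gria3, which encodes a glutamate receptor subunit, had a coding site with 1 of 29 edited reads in wild type and 7 of 47 in E861A (3.45% and 14.9%), which did not pass (adjusted p = 0.428 in Fisher's exact test). Of the 12 genes of this list tested for expression, Azin1, whose product regulates polyamine synthesis, fell from 402.1 ± 89.9 to 173.9 ± 38.4 CPM (SD, n = 3 each), which is a log2 fold change of -1.21 (SE 0.23) with an adjusted p of 0.0139 in edgeR, and none rose. Of 13 tested genes of adenosine deaminases and modifiers of editing, Adar rose, and Dhx9, which encodes an RNA helicase, fell. The log2 fold change of Dhx9 was -0.67 (SE 0.18, adjusted p = 0.0498 in edgeR). Over all genes tested in edgeR 7.77% rose and 4.26% fell, so single calls in lists of 12 and 13 genes are not read as a trait of the lists.

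Among the sites of the whole table that were higher in E861A outside Flna, a pair named after their values were seen were a site in the 3' UTR of Ankrd28 (0% in wild type and 3.96% in E861A) and 1 near ENSMUSG00000069475 (23.1% and 39.0%).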
